A study of Homo sapiens with 12 samples.

Results

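Neurofilament and other neuronal genes were followed in 293T cells, a human embryonic kidney line for which neuron-like and adrenal traits have been reported. The genes were NEFL, NEFM, NEFH, INA, STMN2, GAP43, MAP2, TUBB3, UCHL1 and NES, and all probe sets annotated to 1 gene symbol, that of a listed gene, were taken. This gave 21 of the 54675 probe sets on the array, for 10 of 19775 genes, chosen by symbol and not by signal. The questions were how bright these probe sets are in cells with an empty vector, and whether they differ between vectors. The study used 12 arrays, 4 biological replicates per group. The groups were 293T cells with a vector for an artificial CU1276 hairpin (hairpin vector), with a vector for the human tRNA gene chr1.tRNA68-Gly(GCC) (tRNA vector), and with the vector alone (empty vector). CU1276 is a small RNA that the labels describe as cut from this tRNA. All 3 groups were transfected transiently with polyethylenimine and collected after 48 hours, so no untreated cells enter the comparisons, and the share of transfected cells is not given. The labels do not say whether replicates of the same number share a culture. Values are MAS5 signals, a background-corrected brightness per probe set that the authors had scaled so that each array has a trimmed mean of 500.1.

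Neurofilaments are the intermediate filaments of axons and are built from light (NEFL), medium (NEFM) and heavy (NEFH) chains with alpha-internexin (INA). Nestin (NES) is a related filament protein of neural progenitors. TUBB3 is a beta-tubulin used as an early neuronal marker, MAP2 binds dendritic microtubules, STMN2 binds tubulin in growing axons, GAP43 is a growth cone protein, and UCHL1 is a deubiquitinase abundant in neurons and neuroendocrine cells. REST is a repressor that keeps many neuronal genes silent in other tissues.

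RefSeq promoter windows, from 250 bases before to 50 after a gene start on GRCh38.p14, were at hand for 6 of the 10 genes. Of these, 4 are shown because they come from genes with high and with low signal: INA (chr10:103276888-103277187) and UCHL1 (chr4:41256678-41256977), both bright on these arrays, and GAP43 (chr3:115623260-115623559) and MAP2 (chr2:209579357-209579656), both far less bright. All lie on the + strand and are written 5′ to 3′, with capitals marking CG pairs. MAP2 has 3 such windows, and the one with the most CG pairs is printed.
INA: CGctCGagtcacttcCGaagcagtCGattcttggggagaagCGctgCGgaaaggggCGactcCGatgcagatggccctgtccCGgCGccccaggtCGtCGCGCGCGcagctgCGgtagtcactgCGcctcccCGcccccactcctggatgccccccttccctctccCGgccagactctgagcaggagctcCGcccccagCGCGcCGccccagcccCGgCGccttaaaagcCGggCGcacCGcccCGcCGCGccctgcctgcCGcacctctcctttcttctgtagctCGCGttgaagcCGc
UCHL1: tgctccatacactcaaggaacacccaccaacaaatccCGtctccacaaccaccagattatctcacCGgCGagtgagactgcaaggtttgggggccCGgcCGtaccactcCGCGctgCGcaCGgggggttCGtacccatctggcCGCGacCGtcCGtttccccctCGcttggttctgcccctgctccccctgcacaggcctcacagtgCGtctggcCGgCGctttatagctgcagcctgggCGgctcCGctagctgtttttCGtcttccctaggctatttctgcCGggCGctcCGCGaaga
GAP43: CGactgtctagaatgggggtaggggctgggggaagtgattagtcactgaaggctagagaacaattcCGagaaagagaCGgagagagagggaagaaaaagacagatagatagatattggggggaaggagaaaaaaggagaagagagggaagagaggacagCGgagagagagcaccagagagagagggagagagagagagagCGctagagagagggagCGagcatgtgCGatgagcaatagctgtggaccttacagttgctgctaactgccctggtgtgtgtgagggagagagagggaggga
MAP2: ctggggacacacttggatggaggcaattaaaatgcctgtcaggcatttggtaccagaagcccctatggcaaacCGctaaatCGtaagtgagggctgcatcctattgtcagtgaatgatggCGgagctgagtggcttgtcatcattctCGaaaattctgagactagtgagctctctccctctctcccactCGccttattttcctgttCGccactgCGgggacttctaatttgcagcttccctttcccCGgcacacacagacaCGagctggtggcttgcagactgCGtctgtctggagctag

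The windows differed in CG pairs. INA held 35 and UCHL1 25, while GAP43 held 7 and the MAP2 windows 5, 7 and 10, against a median of 14 over 35116 RefSeq windows. TUBB3, the brightest of the 10 genes, had 47 CG pairs at one of its starts and 9 at the other, and NES, whose signal was near that of GAP43, had 14. The motif GGGCGG, the GC box, was found on either strand 4 times in INA, 4 times in NES, 5 times in one TUBB3 window, 1 time in UCHL1 and 0 times in GAP43 and MAP2, and 45.0% of all windows hold it. Of the left and right parts of the REST element, CAGCACC was found on either strand 1 time in NES and is in 7.75% of all windows, and GGACAG was found 1 time each in INA, GAP43 and one TUBB3 window and is in 20.5% of all windows. The parts joined as in the element, with 2 bases between, were in 0 of the windows of these genes and in 0.0513% of all windows, and elements outside the windows were not searched. These are descriptions of 6 genes, and no test was run on them.

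The light and medium neurofilament chains and alpha-internexin gave clear signals in 293T cells, and the heavy chain did not. The brightest NEFM probe set read 4001, 4335, 5472 and 4966 on the hairpin vector arrays, 5486, 4345, 4244 and 5323 on the tRNA vector arrays, against 4012, 4377, 5234 and 3872 on the empty vector arrays. The 3 groups overlapped, and NEFM stood at the 93.3rd percentile of 19775 genes in the empty vector arrays, each gene taken by its brightest probe set. NEFL read 2839, 2593, 2645 and 2585 with the hairpin vector, 2862, 2699, 2880 and 2831 with the tRNA vector, against 2595, 3156, 2457 and 2573 with the empty vector. One empty vector array, number 2, was higher than all other arrays, and the groups otherwise overlapped, with NEFL at the 88.0th percentile. INA, the partner of these chains, read 1771, 1551, 1844 and 1605 with the hairpin vector, 1416, 1531, 1887 and 1499 with the tRNA vector, against 1442, 1487, 1631 and 1595 with the empty vector. The INA groups overlapped too, and INA stood at the 79.6th percentile. NEFH, the chain that joins late in axon maturation, read 65.8, 73.9, 52.0 and 54.5 with the hairpin vector, 54.4, 59.1, 21.6 and 35.4 with the tRNA vector, against 10.7, 78.9, 63.5 and 29.0 with the empty vector. These NEFH values scatter around 43.3, the signal under which probe sets were treated as dim, and put NEFH at the 24.1st percentile. In these bulk samples fewer cells of a type and less RNA per cell cannot be told apart, so a middling signal may come from all cells or from some.

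TUBB3 and UCHL1 were brighter still. TUBB3 read 7986, 9590, 8546 and 8547 on the hairpin vector arrays, 8142, 10364, 9445 and 9654 on the tRNA vector arrays, against 7797, 7871, 8875 and 7955 on the empty vector arrays. Of the tRNA vector arrays 3 lay above all empty vector arrays, and the hairpin vector arrays lay among both. TUBB3 stood at the 97.4th percentile of genes, with 506 genes brighter. Both TUBB3 probe sets carry the suffix _x_at, which marks probes that also match other transcripts, and other beta-tubulins were bright here, so how much of this signal is TUBB3 itself was not tested. UCHL1 read 5871, 6257, 7144 and 7066 with the hairpin vector, 5935, 6991, 7842 and 7737 with the tRNA vector, against 6672, 6263, 7112 and 6324 with the empty vector. The groups overlapped, and UCHL1 stood at the 96.4th percentile.

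The other microtubule and growth cone genes, and nestin, were near or below the 90th percentile of genes restricted to other tissues. To set that percentile, 50 genes restricted to liver, muscle, pancreas, retina, blood, lung, testis and other tissues were listed, and 42 had a probe set with 1 symbol. Their median geometric mean signal was 27.6 in the empty vector arrays, their 90th percentile 140 and their highest 249 (TNNI3, of cardiac muscle). NES averaged 181 ± 45.2 with the hairpin vector, 152 ± 61.3 with the tRNA vector, against 156 ± 30.9 with the empty vector (SD, n = 4 each). GAP43 averaged 163 ± 18.9 with the hairpin vector, 155 ± 43.8 with the tRNA vector, against 135 ± 19.7 with the empty vector. By these brightest probe sets both genes therefore sat close to that 90th percentile, while their other probe sets read lower. MAP2 averaged 53.6 ± 14.2 with the hairpin vector, 38.7 ± 20.4 with the tRNA vector, against 53.9 ± 9.19 with the empty vector. STMN2 read 37.2, 6.6, 6.7 and 39.0 with the hairpin vector, 38.8, 26.5, 52.4 and 24.1 with the tRNA vector, against 91.5, 7.9, 44.1 and 26.1 with the empty vector. Its highest array was 13.8 times its lowest, and its geometric mean over all arrays, 25.3, was under the dim limit, so STMN2 was the 1 gene of the 10 with no probe set in the test.

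In the empty vector arrays 6 of the 10 genes (TUBB3, UCHL1, NEFM, NEFL, INA and NES) were above the 90th percentile of the tissue-restricted genes, against 54.7% of all 19775 genes. With the highest tissue-restricted gene (249) as the limit, 5 of the 10 remained above it, NES being the one that dropped out. That limit was not far above the median of all 19775 genes, 211. A gene with a geometric mean of 253, CPLX1, stood at the 52.2nd percentile, so a large share of all genes was above it too. TUBB3 was at 58.0 times the 90th percentile, UCHL1 at 47.1 times, NEFM at 31.1 times, NEFL at 19.2 times and INA at 11 times. In the order TUBB3, UCHL1, NEFM, NEFL, INA and NES, the 4 empty vector arrays of each gene before NES lay above all 4 of the next. From NES downward the order is not resolved: NES (113 to 183) overlapped GAP43 (117 to 153), MAP2 (42.4 to 62.0) overlapped NEFH (10.7 to 78.9), and NEFH overlapped STMN2 (7.9 to 91.5), while GAP43 stayed above MAP2. Probe sets differ in how strongly they bind their transcript, so signals and percentiles of different genes order them only roughly.

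**Figure D1:**
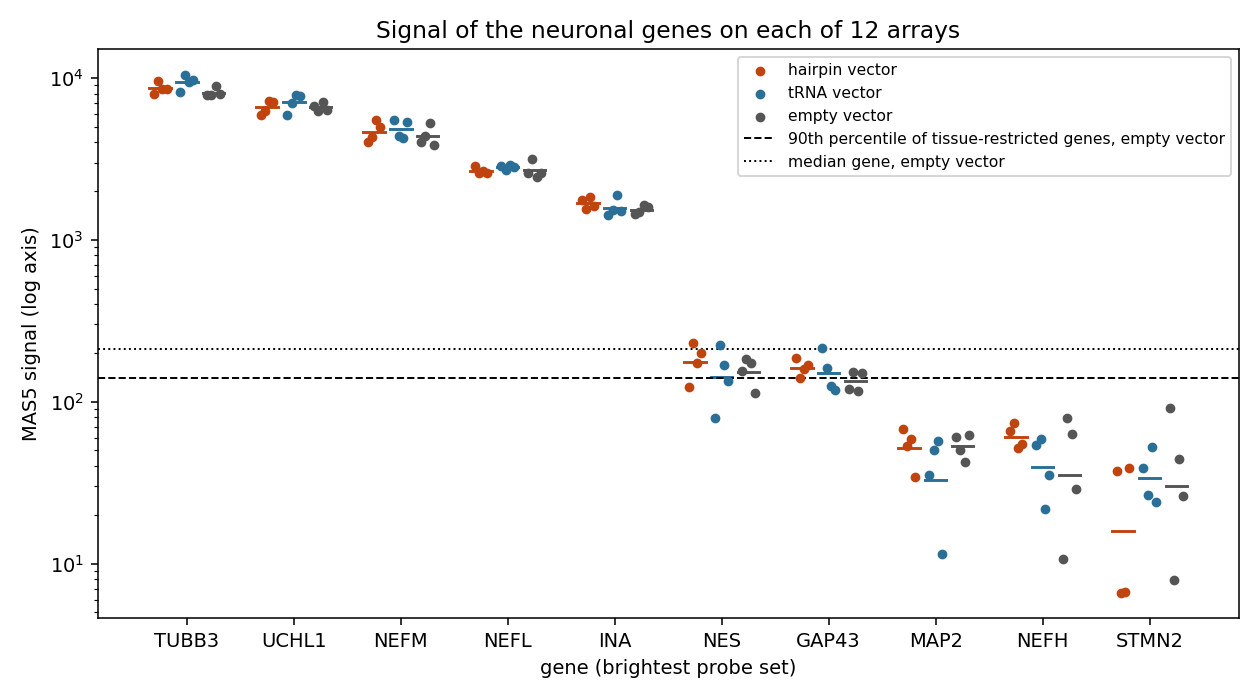
MAS5 signal (log axis) of the brightest probe set of each of the 10 genes on each array, in the order hairpin, tRNA and empty vector within a gene, with short lines at the geometric means of 4 arrays. TUBB3, UCHL1, NEFM, NEFL and INA lie far above the dashed line (140, the 90th percentile of 42 tissue-restricted genes), NES and GAP43 lie near it, and MAP2, NEFH and STMN2 lie below it with wide scatter.

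Probe sets of the same gene did not always give the same picture. NEFM had a second probe set that averaged 26.7 ± 25.3 with the hairpin vector, 5.12 ± 2.91 with the tRNA vector, against 14.9 ± 14.9 with the empty vector (SD, n = 4 each), far below the first in all 3 groups. With the mean of both, NEFM fell to the 62.1st percentile of genes. The second NEFL probe set was close to the first, at 2313 ± 374 for the hairpin vector, 2290 ± 178 for the tRNA vector, against 2341 ± 324 for the empty vector. The third, an _x_at set, was dimmer at 305 ± 136 for the hairpin vector, 382 ± 134 for the tRNA vector, against 394 ± 88.9 for the empty vector. UCHL1 had a second probe set far under its first, at 242 ± 38.5 for the hairpin vector, 260 ± 52.3 for the tRNA vector, against 238 ± 64.5 for the empty vector. Both TUBB3 probe sets were bright, the second averaging 8542 ± 972 with the hairpin vector, 8838 ± 368 with the tRNA vector, against 7995 ± 945 with the empty vector. For NEFH, MAP2 and STMN2 all 6 probe sets averaged under 65 in every group, so no probe set of these genes was bright. INA was read by 1 probe set only.

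**Figure D2:**
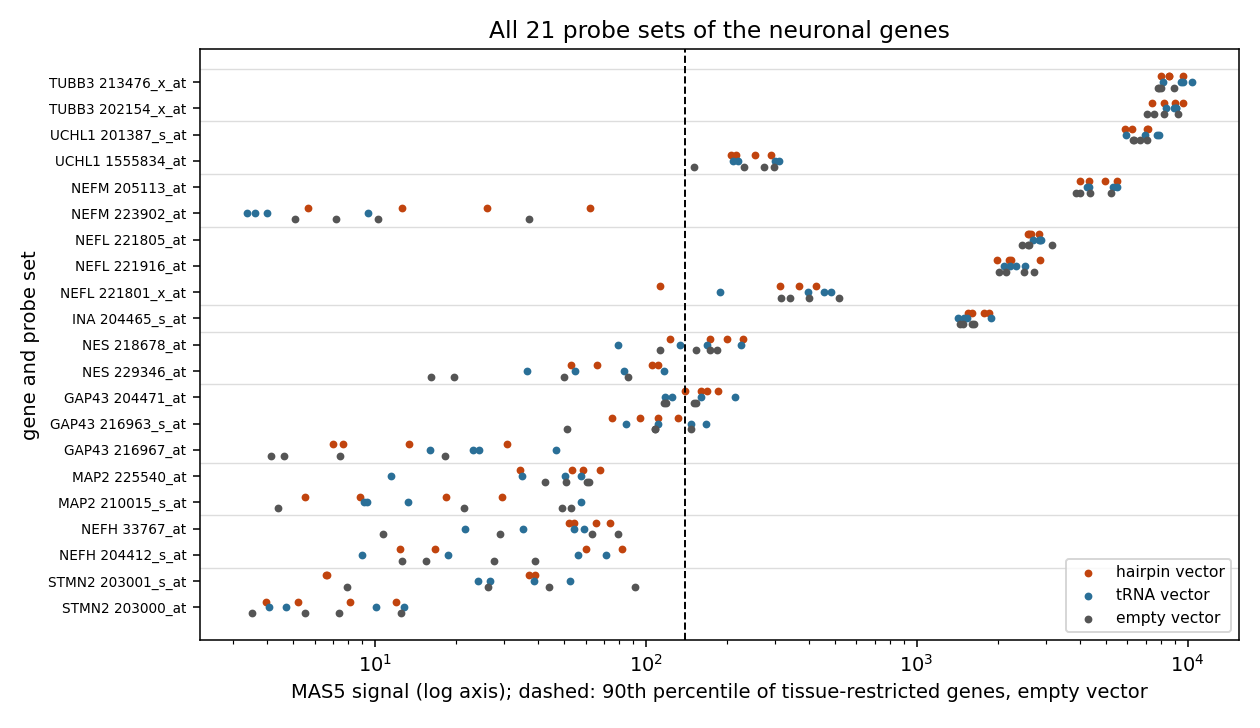
MAS5 signal (log axis) of all 21 probe sets, with 4 points each for the hairpin, tRNA and empty vector from top to bottom within a probe set. The 2 probe sets of NEFM lie on opposite sides of the dashed line at 140, while those of TUBB3 lie together and those of NEFH, MAP2 and STMN2 all lie left of it.

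Other genes of the same cell types were set beside the 10, as lists, in the empty vector arrays. For all 19775 genes the share above the 90th percentile of the tissue-restricted genes was 54.7%, to be read beside each list count below. Of 33 further neuronal markers with a probe set, 14 were above that percentile. The brightest were ELAVL2, an RNA-binding protein (1452 ± 254), STMN3, a relative of STMN2 (999 ± 113), and ENO2, neuronal enolase (640.3 ± 16.9; SD, n = 4). The 5 markers taken as defining for neurons were mixed. SNAP25, of synaptic vesicle fusion, read 289.6 ± 31.5 and was above that 90th percentile. The other 4 were not: SYP, of synaptic vesicles, read 139 ± 60.2, ELAVL4 67.1 ± 29.1, RBFOX3, the neuronal nuclear antigen NeuN, 51.5 ± 25.1, and DCX, doublecortin, 17.2 ± 11.4. Genes of mature neurons lay on both sides of the limit. Named after their values were seen, the calcium sensor SYT1 (556 ± 88.2), the microtubule protein MAPT (443 ± 77.1), the GABA enzyme GAD1 (447 ± 45.8) and the synaptic proteins SYN2 (242 ± 67.0) and CPLX1 (256 ± 46.2) were above it. Also named after their values were seen, the glutamate receptor subunits GRIN1 (31.0 ± 17.9) and GRIA2 (23.0 ± 20.9) were below it. So were the second GABA enzyme GAD2 (82.3 ± 24.9), CPLX2 (28.3 ± 29.6), ELAVL3 (23.1 ± 5.34), CAMK2A (26.9 ± 20.6) and SLC17A6 (15.3 ± 14.3). SYN1 and SLC17A7 were just below it, with geometric means, the measure used for the limit, of 135 and 125. Of 13 neural progenitor markers other than NES, 5 were above it, led by SOX4 (3723 ± 1230), PAX6 (2011 ± 187) and CDH2, N-cadherin (1976 ± 161). SOX2 read 412 ± 95 and MSI1 33.5 ± 20.7. Of 13 further intermediate filament genes 10 were above it. VIM, the vimentin of mesenchymal and cultured cells, was at 20947 ± 1322, KRT10 at 3081 ± 292 and KRT18, a keratin of simple epithelia, at 2217 ± 161. KRT8, the partner of KRT18, read 228 ± 26.0, and PRPH, the filament of peripheral neurons, 155 ± 32.3. Of 19 tubulin and microtubule-associated genes 18 were above it, led by TUBA1B (36413 ± 1956), TUBA1C (24459 ± 1955) and TUBB (22521 ± 2844). MAP1B, a microtubule protein of growing axons, read 1239 ± 269, STMN1 1399 ± 217 and TUBB2B 3020.5 ± 1007.5.

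Markers of the adrenal gland were mostly under the 90th percentile of the tissue-restricted genes, where 54.7% of all genes were above it. Of 16 chromaffin and sympathetic markers 3 were above it, all of them transcription factors: GATA3 (1168 ± 112), ISL1 (1045 ± 47.2) and INSM1 (475.5 ± 63.5). The enzymes of catecholamine synthesis were low, with TH at 27.6 ± 26.9, DBH at 10.0 ± 2.92 and PNMT at 20.4 ± 7.25, and the granule protein CHGA read 140 ± 27.6. Of 15 adrenal cortex markers 3 were above it, FDX1 (3448 ± 205), SCARB1 (1483 ± 182) and POR (695 ± 57.4), which serve electron transfer and cholesterol uptake in many tissues. The defining cortex genes were low: NR5A1, the steroidogenic factor, read 25.5 ± 18.5, STAR 21.5 ± 24.0, CYP11A1, which cleaves the cholesterol side chain, 6.22 ± 1.85, CYP17A1 14.8 ± 8.95, and MC2R, the receptor for corticotropin, 74.4 ± 47.5. Of the REST repressor and its 11 cofactors 11 of 12 genes were above it, with REST at 616 ± 145 and its partner RCOR1 at 1257 ± 87.3, and HDAC2, HDAC1 and KDM1A the brightest (10943 ± 1258, 10721 ± 271 and 2504 ± 177).

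**Figure D3:**
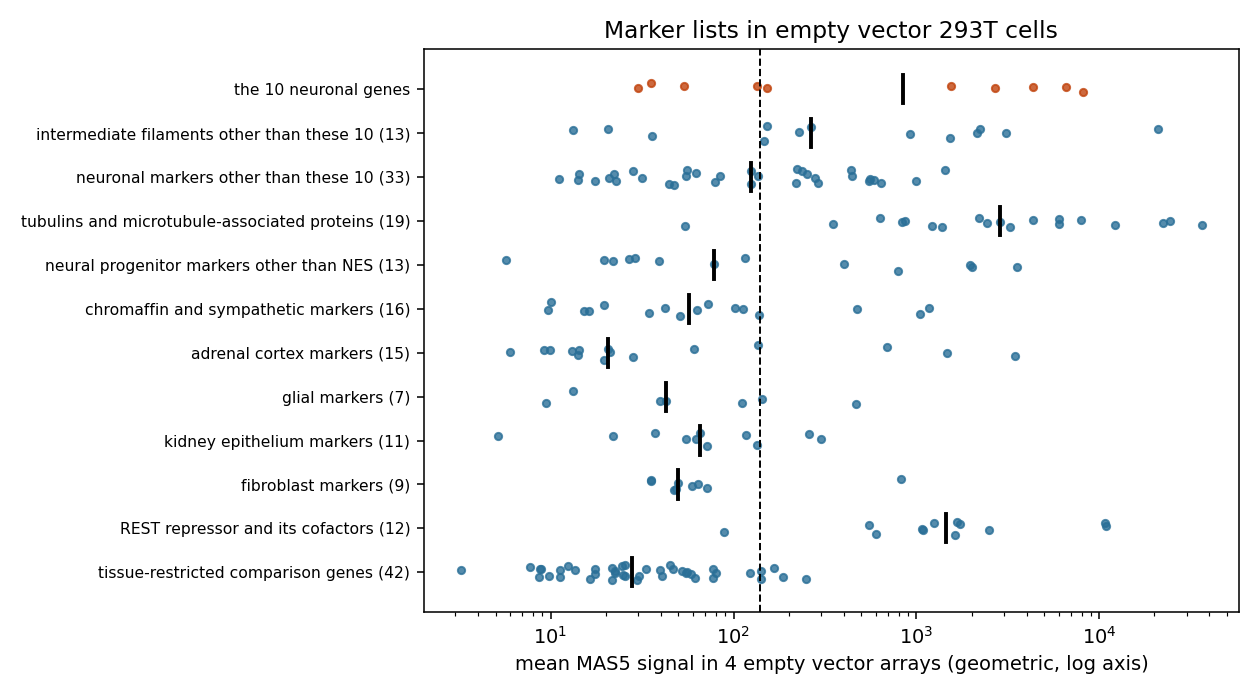
Geometric mean MAS5 signal in the 4 empty vector arrays (log axis) of each gene of a list, with the number of measured genes in brackets and a black bar at the list median. The 10 neuronal genes lie on both sides of the dashed line at 140, with NES and GAP43 beside it, while most adrenal cortex genes lie with the tissue-restricted genes.

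With the hairpin vector none of the 10 genes passed the test against the empty vector. The comparison asks whether supplying CU1276 as a hairpin moves these transcripts. limma called 0 of the 15 tested probe sets of these genes (smallest adjusted p = 0.9999), where 0.0% of all 32768 tested probe sets passed, and 0 had an unadjusted p under 0.05, against 2.65% of all. The log2 difference was -0.010 ± 0.086 for NEFL, 0.10 ± 0.12 for NEFM, 0.14 ± 0.10 for INA, 0.092 ± 0.085 for TUBB3 and -0.0049 ± 0.097 for UCHL1 (limma standard error, n = 4 arrays per group). The 95% intervals of these 5 genes, not adjusted for their number, ran from 0.863-fold to 1.29-fold, so larger shifts lie outside them. For NEFH and MAP2 the intervals were wide, for example 0.669-fold to 4.44-fold for NEFH, whose log2 difference was 0.79 ± 0.64, and a sizeable change could not be seen there. INA was higher with the hairpin vector on 4 of 4 arrays set against the empty vector array of their number, with overlapping groups and an exact permutation p of 0.143. The second NES probe set, which averaged 83.9 ± 28.7 with the hairpin vector and 42.8 ± 32.5 with the empty vector, had the smallest unadjusted limma p of the 15, 0.0530, and the brighter one stood at 0.20 ± 0.32.

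With the tRNA vector too none passed. The comparison asks whether adding the tRNA gene moves these transcripts. limma called 0 of the 15 tested probe sets (smallest adjusted p = 1), where 0.0% of all passed, and 1 had an unadjusted p under 0.05, against 3.78% of all. That one was the brightest TUBB3 probe set, which averaged 9401 ± 927 with the tRNA vector, against 8125 ± 504 with the empty vector (SD, n = 4 each). Its log2 difference was 0.21 ± 0.085, a fold of 1.15, with an unadjusted limma p of 0.0289 and an exact permutation p of 0.0571. With the replicate number as a block its unadjusted limma p was 0.0054 and its adjusted p 0.480. It was higher in 4 of 4 same-number comparisons, by 0.062, 0.40, 0.090 and 0.28, and the other TUBB3 probe set stood at 0.15 ± 0.096. Among the further tubulins TUBB averaged 26624 ± 4075 with the tRNA vector, against 22521 ± 2844 with the empty vector. Of the 19 tubulin and microtubule-associated genes 15 had a higher mean with the tRNA vector, and 9 had one with the hairpin vector, each against the empty vector. With the tRNA vector 0 were past the test and 0 at an unadjusted limma p under 0.05, beside 0.0% and 3.78% of all tested probe sets. The share of all probe sets with a higher mean was not counted. TUBB, TUBA1B, TUBA1C, TUBB4B and TUBB2B were read by _x_at probe sets, so their signals may not be separate. For NEFL the difference was 0.071 ± 0.086, for NEFM 0.15 ± 0.12, for INA 0.034 ± 0.10 and for UCHL1 0.11 ± 0.097. MAP2 stood at -0.70 ± 0.56, a difference that rests mainly on tRNA vector array 4 (11.5, against 35.1 to 57.6 on the other tRNA vector arrays). Over the 15 probe sets the median log2 difference was 0.15, against -0.00035 over all tested probe sets, while the median size without sign was 0.15 against 0.14. The empty vector arrays serve both this comparison and the one for the hairpin vector, which are therefore not independent.

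Between the vectors none passed either. limma called 0 of 15 (smallest adjusted p = 0.9997), where 0.0% of all passed, and 0 had an unadjusted p under 0.05, against 3.88% of all. With the replicate number as a block, 6 of all tested probe sets passed and 0 of these 15 did (smallest adjusted p = 0.695). Hairpin minus tRNA vector, the log2 difference was -0.081 ± 0.086 for NEFL, -0.048 ± 0.12 for NEFM, 0.10 ± 0.10 for INA, -0.11 ± 0.085 for TUBB3 and -0.11 ± 0.097 for UCHL1. By their brightest probe sets, NEFL, TUBB3 and UCHL1 were each lower with the hairpin vector in 4 of 4 same-number comparisons. Their groups overlapped, with exact permutation p of 0.0857, 0.257 and 0.343. Likewise NEFH, NES and MAP2 were each higher with the hairpin vector in 4 of 4, by a mean log2 difference of 0.62 ± 0.64, 0.31 ± 0.32 and 0.66 ± 0.56. Their groups overlapped too, with exact permutation p of 0.143, 0.457 and 0.286. Other tested probe sets did not all go the same way. The second NEFL probe set was higher with the hairpin vector in 3 of 4, by a mean of 0.0041, and the third in 1 of 4. For TUBB3 the second was higher in 2 of 4, for NES in 3 of 4 and for UCHL1 in 0 of 4. How many of all tested probe sets go 1 way in 4 of 4 was not counted, and the permutation tests do not use the numbers. In all 3 comparisons 0 of the 15 probe sets had groups that did not overlap, against 2.12%, 2.6% and 2.63% of all tested probe sets for hairpin against empty, tRNA against empty and hairpin against tRNA vector.

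**Figure D4:**
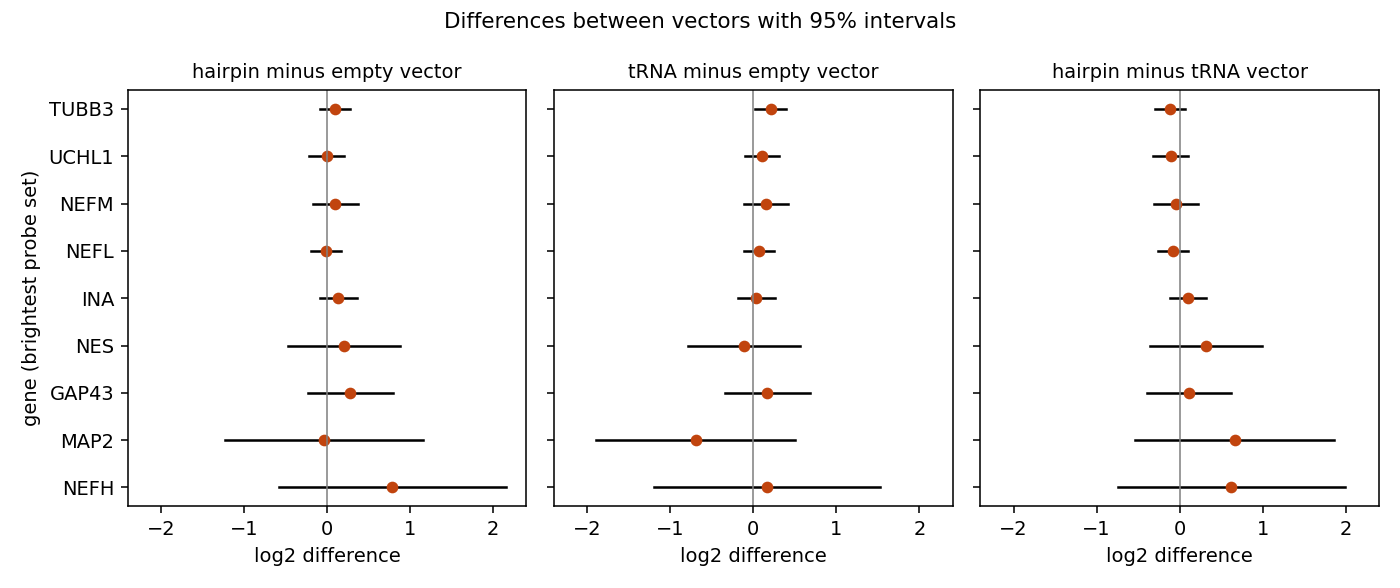
Log2 difference (points) and 95% interval (lines) of the brightest probe set of the 9 genes with a tested one, for hairpin minus empty, tRNA minus empty and hairpin minus tRNA vector. The 5 bright genes have short intervals near 0, of which TUBB3 for the tRNA vector alone leaves 0 out (0.025 to 0.39, unadjusted), and those of MAP2 and NEFH are several times wider.

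In the further lists too 0 genes passed the adjusted threshold, where 0.0% of all tested probe sets passed, while counts at an unadjusted p differed. Of the 22 tested neuronal markers 0 passed in any comparison, with 10, 7 and 10 higher for tRNA against empty, hairpin against empty and hairpin against tRNA vector. At an unadjusted limma p under 0.05, there was 1 neuronal marker for tRNA against empty, 0 for hairpin against empty and 2 for hairpin against tRNA vector, where 3.78%, 2.65% and 3.88% of all tested probe sets had one. The first was SNAP25, averaging 194 ± 62.5 with the tRNA vector and 289.6 ± 31.5 with the empty vector (-0.64 ± 0.25). The other two were SNAP25 again (0.53 ± 0.25, hairpin minus tRNA vector) and GAD2, a second GABA enzyme (-1.22 ± 0.53), named after its values were seen. Of the REST list 0 of 12 passed, and REST itself averaged 722 ± 164 with the hairpin vector, 583 ± 119 with the tRNA vector, against 616 ± 145 with the empty vector (SD, n = 4 each). Of the adrenal cortex list 0 of 5 tested genes passed and of the chromaffin list 0 of 7, as did 0 of 10 intermediate filament and 0 of 7 progenitor genes. Of the filament genes 1 had an unadjusted limma p under 0.05, for hairpin against tRNA vector, beside 3.88% of all tested probe sets. It was LMNB2 (-0.29 ± 0.11), named after its values were seen. The adrenal cortex gene SCARB1 averaged 1729 ± 81.4 for the hairpin vector, 1705 ± 91.5 for the tRNA vector, against 1483 ± 182 for the empty vector, with an unadjusted limma p under 0.05 for both vectors. MRAP, a partner of the corticotropin receptor named after its values were seen, also had one for tRNA against empty vector, in the other direction (-1.25 ± 0.58). That made 2 of 5 tested cortex genes for the tRNA vector and 1 of 5 for the hairpin vector, beside the same shares of all probe sets.

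By their brightest probe sets, the bright genes also varied little from array to array. Over all 12 arrays the highest signal was 1.29 times the lowest for NEFL, 1.42 times for NEFM, 1.33 times for INA, 1.33 times for TUBB3 and 1.34 times for UCHL1. The residual SD of NEFL within groups was 0.10 on the log2 scale, against a median of 0.15 over the tested probe sets nearest to it in signal, and that of INA was 0.13 against a median of 0.17. That of NEFM was 0.20 against 0.13, so NEFM was more variable than most probe sets of its brightness. For TUBB3 it was 0.117 against 0.122 and for UCHL1 0.142 against 0.125. The second NEFL probe set went the other way from the first, at 0.184 against 0.151, and so did the third, at 0.65 against 0.28. The second TUBB3 probe set stood at 0.141 against 0.123. As a description over the same 12 arrays, NEFL and NEFM correlated at r = -0.057, NEFL and INA at -0.072 and NEFM and INA at -0.062. No joint variation of these filament genes was seen within this narrow range. These values cannot show that it is absent, since even 2 probe sets of 1 gene could correlate weakly here. The 2 brighter NEFL probe sets correlated at r = 0.70 and the TUBB3 probe sets at 0.055. Among 13951 other genes, those most like NEFL over the 12 arrays were DKK1, B4GALT3 and DPM1 (r = 0.85 each), those most like NEFM were NFKBIZ, MCM4 and CIAO1 (0.84, 0.82 and 0.81), and those most like INA were ZNF740, IFT20 and TACC2 (0.87, 0.84 and 0.82). Those most like TUBB3 were DDOST, CKB and UBTF (0.94, 0.93 and 0.91). The highest of so many correlations are large by selection, and all points share arrays and scaling.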

How the data were processed

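The authors deposited, for each array, linear MAS5 intensities scaled to a 2% trimmed mean of 500.1. The submitters' processing notes name MAS5 with no version; the genome build is not given in the sources used here. Labelling used 12 micrograms of total RNA. Arrays hold no read depth. Their number limits precision, and limma p-values set differences of group means against the spread between these samples. Symbols come from the platform annotation, checked by Entrez identifier (0 changed, 54 not in RefSeq).

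The log2 of each deposited signal was analysed without an offset. The 62 controls were left out, and so were 21845 dim probe sets below the 40th percentile (signal 43.3). A fit of 3 group means to 32768 probe sets used limma 3.58.1 in R 4.3.3 (trend, Benjamini-Hochberg, threshold 0.05, two-sided), tested on simulated data. Exact permutation tests, two-sided, exchanged 8 arrays (smallest possible p = 0.0286). A gene is its brightest probe set.

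Named were all 10 genes, of each list the 3 brightest and the defining genes, and the 3 genes most like NEFL, NEFM, INA and TUBB3; SNAP25 is also a defining gene. The genes, lists and alternatives were chosen with earlier results of these data known. Listed genes without a probe set of 1 symbol were not analysed here.

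Deviations of same-numbered arrays correlated at r = 0.108 to 0.333 for hairpin against empty, 0.113 to 0.356 for hairpin against tRNA and 0.0987 to 0.284 for tRNA against empty vector. By a limit of 0.1 the numbers pair the arrays in the first 2 comparisons, and tRNA against empty vector missed it narrowly, at 0.0987. Hairpin vector array 4 was closer to an empty vector array of another number (0.148) than to that of its own (0.134). The same held for tRNA vector arrays 3 and 4 against the empty vector. The main fit, with its standard errors, intervals and p-values, does not use the numbers. Bacillus control RNAs, added in labelling, averaged 1941 to 2061 in arrays numbered 1, 371 to 431 in those numbered 2 and 19.8 to 27.6 in those numbered 3 and 4. Alternatives were quantile normalization, an offset of 16, no filter, a filter at the 60th percentile, blocks by number or by control RNA level, no trend, probe set means and leaving out each array.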

Additional observations from a re-analysis of the deposited data

Results flagged for a closer look

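Dixon's test for a sample far from the others was applied to the log2 signals of the 21 probe sets in each group of 4 arrays, 63 groups in all, of which chance flags about 1 in 20. It flagged 2. The brightest TUBB3 probe set read 8875 on empty vector array 3, against 7797 to 7955 on the other empty vector arrays. The dim second NEFM probe set read 9.48 on tRNA vector array 1, against 3.4 to 4.0 on the other tRNA vector arrays.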

How the results depend on the processing

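Over 20 alternatives 0 probe sets of the 10 genes passed in any comparison, and the smallest adjusted p was 0.451, for TUBB3 with the tRNA vector and the control RNA level as a block. With the replicate block the smallest was 0.480, 0.899 and 0.695 for tRNA against empty, hairpin against empty and hairpin against tRNA vector, and it changed no other call. Over all tested probe sets the count of 0 became 6 between the vectors with the replicate block, and 4, 3 and 8 in the same 3 comparisons with the control RNA level as a block; leaving out single arrays gave 0 throughout. Of 531 recomputed log2 differences of the 10 genes 505 kept their direction, and 26 turned, in 11 of 30 differences, all of size 0.167 or less; their cause was not tested beyond the change itself. With probe sets averaged per gene, tRNA against empty vector gave -0.021 for NEFL, -0.54 for NEFM and 0.43 for NES, hairpin against empty gave 0.024 for UCHL1, and hairpin against tRNA gave 0.97 for NEFM and -0.41 for GAP43; here dim probe sets enter the mean. Quantile normalization turned hairpin against empty for MAP2 (0.010) and UCHL1 (0.0093). Leaving out single arrays, tRNA against empty ran from -0.41 to 0.55 for NEFH, -0.053 to 0.085 for INA, -0.33 to 0.17 for NES and -0.0034 to 0.28 for GAP43. Hairpin against empty ran from -0.052 to 0.068 for NEFL, -0.16 to 0.16 for MAP2 and -0.046 to 0.049 for UCHL1. Hairpin against tRNA ran from -0.125 to 0.025 for NEFM and -0.0032 to 0.28 for GAP43. MAP2 with the tRNA vector ran from -0.97 to -0.19, the last without tRNA vector array 4. The count of genes above the 90th percentile of tissue-restricted genes, 6, was 7 in the tRNA vector arrays and 7 in the hairpin vector arrays, and 5 with the 95th percentile. The share of all genes was counted beside the 6 only, at 54.7%, and the 95th percentile, 165, was under the median gene at 211. STMN2, below the filter, was recomputed with no filter only. Dim probe sets limit what can be seen for NEFH, MAP2 and STMN2.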

Other observations

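Markers of other tissues were read in the same empty vector arrays, where 54.7% of all genes were above the 90th percentile of the tissue-restricted genes. Of 11 kidney epithelium markers 2 were above the 90th percentile of the tissue-restricted genes, PAX8, a transcription factor of the kidney (303 ± 54.7), and CDH1, E-cadherin (263 ± 52.2; SD, n = 4), with EPCAM at 139 ± 36.0, PAX2 at 123 ± 40 and CDH16, kidney cadherin, at 5.37 ± 1.73. Of 7 glial markers 2 were above it, OLIG2 (475 ± 83.8) and ALDH1L1 (145 ± 27.5), and 1, OLIG2, with the 95th percentile as the limit; MBP read 115 ± 34.1, SOX10 47.7 ± 23.0 and GFAP 16.3 ± 13.4. Of 9 fibroblast markers COL1A1 alone was above it (838 ± 198), with COL3A1 at 75.6 ± 28.9, FAP at 75.5 ± 39.2 and DCN at 44.0 ± 30.2. In limma 0 of the 7 kidney epithelium, 3 glial and 7 fibroblast genes tested passed in any comparison, where 0.0% of all tested probe sets passed. At an unadjusted limma p under 0.05 there were also 0. Of all tested probe sets 3.78%, 2.65% and 3.88% had one for tRNA against empty, hairpin against empty and hairpin against tRNA vector. In so few genes a count of 0 is near those shares.

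By the way the limit was set, 5 of the 42 tissue-restricted genes lay above their own 90th percentile, led by TNNI3 (249 ± 18.4), ACTA1 (193 ± 55.1) and SFTPB (182 ± 83.7).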
